A study of Mus musculus with 6 samples.

Results

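A set of 9 genes of the red-cell lineage was followed in LSK cells of Asxl2-/- and control mice. They are Klf1, Epor, Tfrc, Rhag, Ermap, Aqp1, Car1, Car2 and Slc4a1, chosen by name, and all 9 were found among the 24063 gene symbols of the deposited count files and among the 14145 genes that passed the filter on low counts. LSK cells are marrow cells without lineage markers but with Sca-1 and c-Kit on their surface, a fraction rich in blood stem cells and early progenitors. All 6 mice were of the C57BL/6 strain and, according to the methods of the study, carried Mx1-cre, a Cre recombinase under an interferon-inducible promoter, and all received pIpC, a synthetic double-stranded RNA that switches that promoter on. In the 3 Asxl2-/- mice exon 11 of Asxl2 was flanked by loxP sites, so that deletion took place wherever the Mx1 promoter responded, and the 3 controls were wild type for Asxl2. The age and sex of these mice are not given in the sources used here.

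The 9 genes cover successive needs of a red cell. Klf1 is the erythroid Krüppel-like transcription factor, and Epor is the receptor for erythropoietin, the hormone that keeps erythroid progenitors alive. Tfrc, the transferrin receptor, brings in the iron that goes into heme. Rhag, Ermap, Aqp1 and Slc4a1 encode proteins of the red-cell membrane, and Car1 and Car2 encode carbonic anhydrases of the red-cell cytosol, which interconvert carbon dioxide and bicarbonate. In textbook accounts, Slc4a1 (band 3) and the globins come late, in cells far beyond the LSK stage, whereas Klf1, Epor, Tfrc and Car2 are already used by progenitors.

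Among the 9 genes, 7 were lower in Asxl2-/- than in control LSK cells in both kinds of count file. They were Klf1, Epor, Tfrc, Rhag, Ermap, Car1 and Car2, with fitted log2 fold changes of -0.73 to -1.55, or 1.66-fold to 2.93-fold lower levels. Aqp1 and Slc4a1 had no common direction. No fold change of the 9 passed the adjusted threshold of 0.05 in the quasi-likelihood test of edgeR, against 2.34% of all genes tested (0.304% lower and 2.04% higher in Asxl2-/- cells). At an unadjusted p under 0.05, 6 of the 9 were called, each lower, against 27.7% of all genes tested in either direction and 12.6% that were lower. With other tools the number past the adjusted threshold was 4 with DESeq2 (Klf1, Epor, Tfrc and Rhag), which called 16.6% of all genes, and 1 with limma-voom (Tfrc), which called 3.04%. Levels below the controls in both kinds of file were found for 23.3% of all genes tested. In the same 7 genes the levels of all 3 Asxl2-/- libraries lay below those of all 3 controls, which held for 9.36% of all genes in CPM and for 20.8% once the file kind was removed. In bulk samples such as these, fewer cells of a type and less RNA per cell cannot be told apart.

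The total count over all genes lay between 25528540 and 55032075. In Asxl2-/- replicates 1 and 3 and control replicate 2 each transcript had 1 count (gene-count files), while in Asxl2-/- replicate 2 and control replicates 1 and 3 each exon had its own count (exon-count files), so that a spliced read could enter more than once and totals of the 2 kinds are not comparable as depth. Over the whole transcript, Asxl2 did not pass the test (log2 fold change 0.11, SE 0.095, adjusted p = 0.469 with edgeR). In the exon-count files the deleted exon 11 held 0.583% of the Asxl2 exon counts in Asxl2-/- replicate 2 (95% Wilson interval 0.404 to 0.841, counting error only) and 10.3% and 11.99% in control replicates 1 and 3. Xist stood at 1071 to 2351 CPM in the Asxl2-/- libraries and 13.0 to 61.3 CPM in the controls, and Ddx3y at no more than 0.0705 CPM against 83.0 to 101 CPM, so that in these libraries sex and genotype cannot be told apart. Of the genes behind the sort, Kit lay between 280.0 and 431 CPM. Ly6a, which encodes Sca-1, lay between 40.5 CPM in control replicate 1 and 259.8 CPM in control replicate 2. Of these 2 genes, 1 had a log2 fold change above 0 and 1 below 0, with a median of -0.56. Neither had an unadjusted p under 0.05 with edgeR. CPM, the usual count scaled to library size, was taken with TMM-scaled library sizes, except in the ratios of single exons.

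Each gene is placed on the mm10 build. Klf1 (NM_010635) lies at chr8:84901928-84905295 with 3 exons, Epor (NM_010149) at chr9:21958899-21963576 with 8 exons and Tfrc (NM_011638) at chr16:32608896-32632794 with 19 exons. For the membrane proteins, the counts refer to Rhag (NM_011269) at chr17:40811149-40840754 with 10 exons, Ermap (NM_013848) at chr4:119175457-119190011 with 13 exons, Aqp1 (NM_007472) at chr6:55336299-55348555 with 4 exons and Slc4a1 (NM_011403) at chr11:102348820-102365281 with 20 exons. Car1 (NM_009799, chr3:14766214-14808365, 8 exons) and Car2 (NM_009801, chr3:14886426-14900770, 7 exons) are neighbours on the same chromosome. No exon of the 9 shared a base with an exon of another symbol. Car1 alone had 2 transcripts in the files.

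The sequence just upstream of the first exon is shown for the 6 of the 9 genes that could be matched in the RefSeq promoter table (GRCm38.p6, the mm10 build), because the genes that lay together in expression can be compared there by eye. Car1, Car2 and Slc4a1 had no entry. Each line gives the 150 bases before the first exon of the counted transcript, 5′ to 3′ on the strand of the gene, and the capitals mark every GATAA and CACCC on either strand (read as TTATC and GGGTG on the opposite strand). GATAA is the core bound by GATA factors, and CACCC is the core bound by Krüppel-like factors such as Klf1 itself.

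Klf1 (chr8:84901778-84901927, plus strand): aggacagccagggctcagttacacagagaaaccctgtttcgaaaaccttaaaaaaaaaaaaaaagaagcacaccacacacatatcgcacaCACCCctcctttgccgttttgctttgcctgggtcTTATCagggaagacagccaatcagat
Epor (chr9:21963577-21963726, minus strand): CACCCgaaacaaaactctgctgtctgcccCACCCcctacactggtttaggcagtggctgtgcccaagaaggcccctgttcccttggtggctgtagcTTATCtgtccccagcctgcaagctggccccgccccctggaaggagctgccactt
Tfrc (chr16:32608746-32608895, plus strand): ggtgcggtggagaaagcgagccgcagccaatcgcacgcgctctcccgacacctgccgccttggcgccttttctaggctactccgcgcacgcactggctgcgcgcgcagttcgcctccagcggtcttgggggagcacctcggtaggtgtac
Rhag (chr17:40810999-40811148, plus strand): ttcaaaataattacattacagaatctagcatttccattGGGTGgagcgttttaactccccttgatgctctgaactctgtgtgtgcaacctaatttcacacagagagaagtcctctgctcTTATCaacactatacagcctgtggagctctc
Ermap (chr4:119190012-119190161, minus strand): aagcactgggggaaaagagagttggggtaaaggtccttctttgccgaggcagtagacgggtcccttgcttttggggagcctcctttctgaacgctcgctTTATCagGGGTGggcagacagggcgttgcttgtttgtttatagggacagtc
Aqp1 (chr6:55336149-55336298, plus strand): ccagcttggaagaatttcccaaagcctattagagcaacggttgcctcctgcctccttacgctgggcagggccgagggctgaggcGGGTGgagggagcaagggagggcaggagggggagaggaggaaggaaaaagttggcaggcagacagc

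GATAA was found once each in Klf1, Epor, Rhag and Ermap, always on the opposite strand, beginning 26, 54, 31 and 51 bases before the first exon. Those same 4 windows held CACCC, which occurred 2 times in Epor. In Aqp1 there was CACCC without GATAA, and in Tfrc neither within 150 bases. In the 250 bases before its RefSeq start Tfrc held CACCC 2 times and no GATAA. Over 27025 windows of 150 bases upstream of RefSeq gene starts, 13.6% held GATAA, 36.9% held CACCC and 3.97% held both. A longer Krüppel-like consensus, CCNCNCCC, was found in Epor and Aqp1 and in 37.9% of all windows, and in Epor it overlapped a CACCC. The E-box CANNTG was found at 1 place in Tfrc and in 47.4% of all windows. These matches describe letters in a window and are not binding sites.

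Compared per kilobase of transcript, the 9 genes spanned a wide range. Car1 and Car2 held the first and second places in every library, at 177 to 1381 CPM per kilobase for Car1 and 277 to 875 for Car2. Aqp1, Tfrc and Ermap came next, in an order that differed between libraries. Klf1 came after them in all 6 libraries, at 25.6 to 86.6 CPM per kilobase, and was followed by Epor and Rhag, which changed places between libraries. Slc4a1 was last in every library, at 1.09 to 6.90 CPM per kilobase. Thus a cytosolic carbonic anhydrase was the most abundant of these transcripts in LSK cells, and the anion exchanger of the mature red-cell membrane the least.

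**Figure D1:**
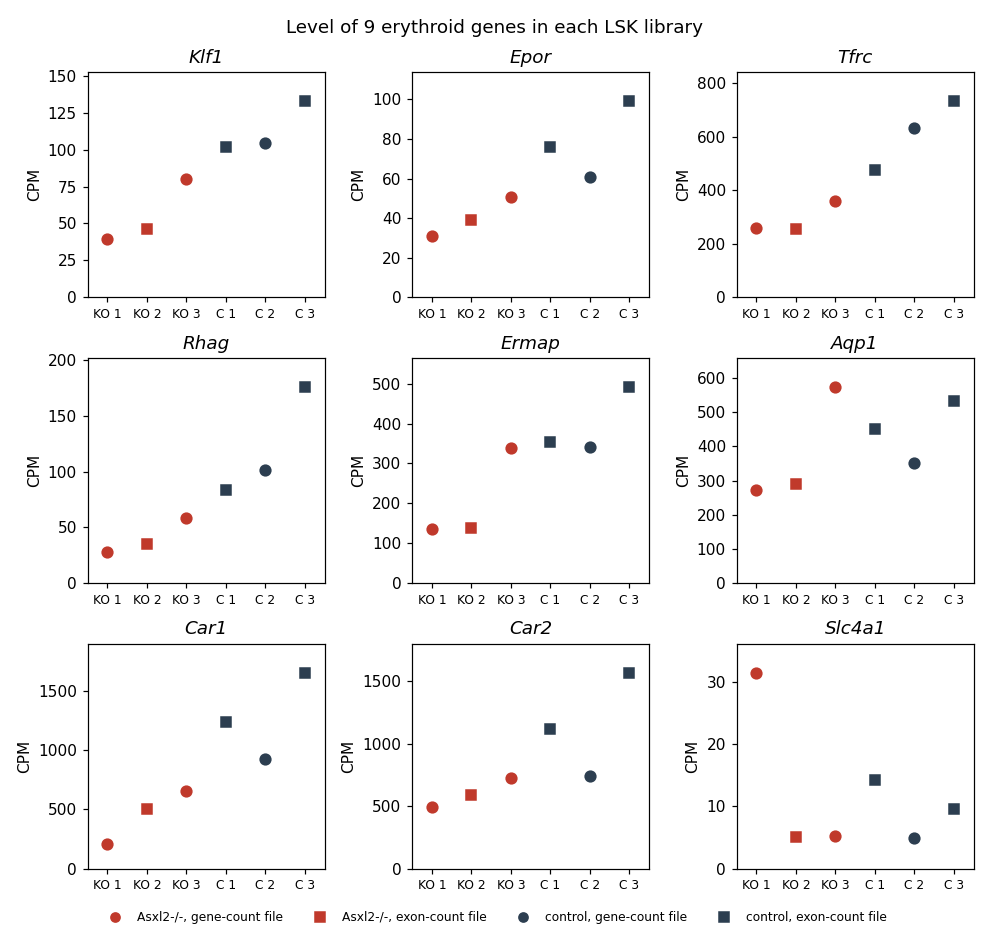
Level of each of the 9 genes in CPM (vertical axis from 0, own scale in each panel) in the 3 Asxl2-/- libraries (KO, red) and the 3 control libraries (C, dark), with circles for gene-count files and squares for exon-count files. In Klf1, Epor, Tfrc, Rhag, Ermap, Car1 and Car2 every red point lies below every dark point, whereas in Aqp1 and Slc4a1 the groups overlap.

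Klf1, the transcription factor, was measured at 39.3, 46.4 and 80.3 CPM in Asxl2-/- replicates 1, 2 and 3. The 3 control libraries held 102, 105 and 133 CPM of it. All 3 Asxl2-/- libraries therefore lay below all 3 controls, with Asxl2-/- replicate 3 the nearest to them. With the file kind taken out, mean log2 CPM was 5.71 ± 0.53 in Asxl2-/- cells and 6.82 ± 0.23 in control cells (SD, n = 3 each). For Klf1 the log2 fold change was -1.07 (SE 0.308, 95% interval -1.82 to -0.32, edgeR adjusted p = 0.103), with -0.90 in the gene-count files alone and -1.32 in the exon-count files alone. Leaving out Asxl2-/- replicate 3 gave -1.40 (edgeR adjusted p = 0.0495), which is past the threshold. No other omission of a single library passed it, with edgeR adjusted p up to 0.257, and without Asxl2-/- replicate 2 the value was -0.81.

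Epor, the erythropoietin receptor, had 30.7, 38.9 and 50.7 CPM in the Asxl2-/- replicates. The 3 controls had 75.8, 60.7 and 99.1 CPM. Again the groups did not overlap, and the gap between the highest Asxl2-/- library and the lowest control was narrow, since Asxl2-/- replicate 3 was at 0.836 of control replicate 2. Its log2 fold change was -0.87 (SE 0.254, edgeR adjusted p = 0.105), with -0.62 and -1.15 in the gene-count and exon-count files, in that order. Without any single library it ranged from -0.58 to -1.16, and none of those fits passed the threshold.

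Tfrc, which imports transferrin-bound iron, had the smallest adjusted p of the 9. Asxl2-/- replicates 1, 2 and 3 gave 258, 255 and 359 CPM. Control replicates 1, 2 and 3 gave 474, 630.2 and 732 CPM. The lowest control thus stood clear of the highest Asxl2-/- library. Fitted over all libraries, the difference was -1.14 on the log2 scale (SE 0.217, 95% interval -1.66 to -0.61, edgeR adjusted p = 0.0557), and gene-count files (-1.05) and exon-count files (-1.21) gave nearly the same value. Tfrc passed the threshold with DESeq2 (adjusted p = 4.81e-06), with limma-voom (adjusted p = 0.0496) and in the fit that dropped control replicate 1 (-1.24, edgeR adjusted p = 0.0398). No other omission of a single library passed it, with edgeR adjusted p up to 0.163.

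Among the membrane genes, Rhag showed the largest difference of the 9. Rhag encodes the Rh-associated glycoprotein, the partner of the Rh blood group proteins. It was measured at 28.0, 35.5 and 58.8 CPM in Asxl2-/- replicates 1, 2 and 3 and at 83.3, 102 and 176 CPM in the controls. No library of one group reached into the range of the other, although the highest library was 2.10-fold above the lowest in the Asxl2-/- group and 2.11-fold in the control group. On the log2 scale the difference was -1.55 (SE 0.419, 95% interval -2.57 to -0.53, edgeR adjusted p = 0.0942), from -1.32 (gene-count files) to -1.77 (exon-count files).

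Ermap, which encodes the erythroid membrane protein that carries the Scianna blood group, had 135, 139 and 338 CPM in the Asxl2-/- replicates. In the controls it had 354, 342 and 492 CPM. Asxl2-/- replicates 1 and 2 were far below, and replicate 3 was level with control replicate 2. Its fitted difference of -1.07 (log2, SE 0.442, edgeR adjusted p = 0.183) accordingly had a wide 95% interval, from -2.14 to 0.00623. It was -0.68 in the gene-count files, which hold that replicate, and -1.58 in the exon-count files. Leaving replicate 3 out gave -1.52 (edgeR adjusted p = 0.0495), and leaving Asxl2-/- replicate 2 out gave -0.53 (edgeR adjusted p = 0.481). No other omission of a single library passed the threshold.

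Aqp1, the water channel of the red-cell membrane, did not share this order. Its level was 271, 288 and 574 CPM in Asxl2-/- replicates 1, 2 and 3 and 451, 353 and 533 CPM in the controls. Asxl2-/- replicate 3 held the highest level of all 6 libraries and replicates 1 and 2 the lowest. A fitted log2 difference of -0.25 (SE 0.373, 95% interval -1.16 to 0.65, edgeR adjusted p = 0.690) stood between a positive value from the gene-count files (0.16) and a negative one from the exon-count files (-0.76). A decrease as large as that of Tfrc lies inside this interval, so the data leave a difference of that size possible. Leaving out Asxl2-/- replicate 2 turned the sign (0.26).

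The carbonic anhydrases were, per kilobase, the most abundant of the 9 genes. Car1 had 212, 504 and 658 CPM in the Asxl2-/- replicates and 1239, 929.9 and 1652 CPM in the controls. Every Asxl2-/- library was below every control, and the Asxl2-/- libraries themselves differed 3.10-fold, with replicate 1 the lowest. Its log2 fold change was -1.31 (SE 0.437, 95% interval -2.37 to -0.25, edgeR adjusted p = 0.129).

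Car2 had 496, 594 and 726 CPM in the Asxl2-/- replicates and 1121, 745 and 1566 CPM in the controls. The groups were separate but touched in the gene-count files, where Asxl2-/- replicate 3 was at 0.975 of control replicate 2. Its log2 fold change was -0.73 (SE 0.281, 95% interval -1.42 to -0.0483, edgeR adjusted p = 0.162), with -0.31 for gene-count files and -1.16 for exon-count files. A test of that difference between the kinds of file gave an unadjusted p of 0.0615 (edgeR adjusted p = 0.470).

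Slc4a1, the anion exchanger band 3, was low, and 1 library stood far above the rest. It had 31.4, 5.02 and 5.22 CPM in Asxl2-/- replicates 1, 2 and 3 and 14.3, 4.97 and 9.55 CPM in the controls, from 143 to 885 counts. Asxl2-/- replicate 1 was 6.32-fold above control replicate 2 in the same kind of file, and the next highest library was control replicate 1. On the log2 scale the fitted difference was 0.29 with a 95% interval from -2.43 to 3.005 (SE 1.12, edgeR adjusted p = 0.894), 1.36 for gene-count files and -1.21 for exon-count files. The difference between the kinds of file had an unadjusted p of 0.0467 and an adjusted p of 0.424, against 11.5% of all genes tested at the unadjusted and 0.099% at the adjusted level. Without Asxl2-/- replicate 1 the value was -0.69 and without control replicate 2 it was -1.25. None of these values shows a direction for Slc4a1.

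**Figure D2:**
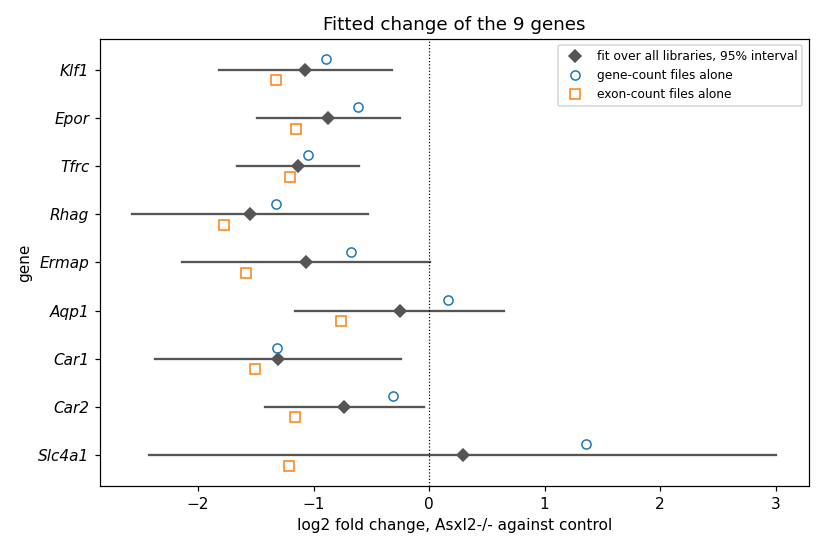
Fitted log2 fold change of each gene, Asxl2-/- against control (diamonds, with 95% intervals as lines), and the difference within gene-count files (circles) or exon-count files (squares) alone. Klf1, Epor, Tfrc, Rhag, Ermap, Car1 and Car2 lie left of 0 in both kinds of file, while Aqp1 and Slc4a1 lie on opposite sides of 0 in the 2 kinds.

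The libraries kept much the same order from gene to gene. The lowest CPM of the 6 libraries was found in Asxl2-/- replicate 1 for 7 of the 9 genes, and the highest in control replicate 3 for 7 of the 9. In each of Klf1, Epor, Tfrc, Rhag, Ermap, Car1 and Car2 the Asxl2-/- library nearest to the controls was replicate 3. The genes are thus not separate replicates of the comparison. The median log2 fold change was -1.07 over the 9 genes and 0.00052 over all genes tested.

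Whether the lower counts came from the whole transcript or from single exons was examined in the 3 exon-count files. Of the 92 exons of the 9 genes, 73 had at least 20 counts in each of the 3 libraries. All 73 had a lower CPM in Asxl2-/- replicate 2 than the mean of control replicates 1 and 3. Exons of the same gene share its difference and are not separate replicates. The share of lower exons among all other genes was not computed. For these ratios CPM was taken with the total count of each library, without TMM scaling. In Klf1 the log2 ratios of the 3 exons ran from -1.34 to -1.25, and in Tfrc those of the 19 exons from -1.33 to -1.02. The 10 exons of Rhag lay between -1.91 and -1.65 and the 13 of Ermap between -1.75 and -1.49. Epor had the widest spread, from -1.55 in its first exon to -0.94. Aqp1 was lower in all 4 exons in this library pair (-0.74 to -0.71), and Slc4a1 had a single exon with enough counts (-1.44). With 1 Asxl2-/- library in these files there is no replicate check of an exon ratio.

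The first exon of the counted Car1 transcript lies far upstream, at chr3:14808302-14808365, and the second Car1 transcript in the files begins 29842 bases further downstream. The upstream exon held 1203 counts in Asxl2-/- replicate 2 and 3098 and 3470 in control replicates 1 and 3. How the reads divide between the 2 transcripts was not determined.

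**Figure D3:**
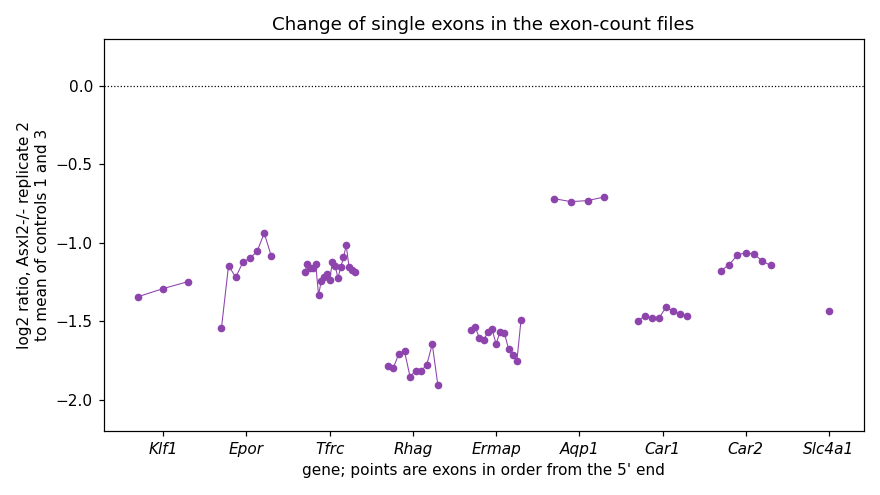
Log2 ratio of the CPM (without TMM scaling) in Asxl2-/- replicate 2 to the mean of control replicates 1 and 3 (vertical axis) for each exon with at least 20 counts, in order from the 5′ end within each gene (horizontal axis). All 73 exons lie below 0, close together within a gene, with the first exon of Epor apart from the rest of that gene. Exons of the same gene are not separate replicates.

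The other genes of the same programme were read from 6 lists with 83 tested genes. At the adjusted threshold edgeR called 0 of them, against 2.34% of all genes. DESeq2 called 25 (7 higher and 18 lower), against 16.6% of all genes, and limma-voom 2 (both lower), against 3.04%. At an unadjusted p under 0.05, 12.6% of all genes tested were lower and 15% higher in Asxl2-/- cells, the shares beside which the counts of each list stand. Of 18 genes of the red-cell membrane and its skeleton, none passed the adjusted threshold, and at an unadjusted p under 0.05, 7 were lower (38.9%, against 12.6% of all genes) and 1 was higher (Art4). Their median log2 fold change was -0.50. Sptb, the beta chain of erythroid spectrin, had the smallest p-value. It stood at 18.7, 11.8 and 15.5 CPM in the Asxl2-/- replicates and at 58.0, 41.4 and 96.9 CPM in the controls, a log2 difference of -1.996 (SE 0.393, edgeR adjusted p = 0.0594). Add2, an adducin of the skeleton, had -1.27 (SE 0.386, adjusted p = 0.111).

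Heme synthesis and iron handling leaned the same way. All 12 enzymes and carriers of heme synthesis had a negative log2 fold change, with a median of -0.37, against 0.00052 over all genes tested. Among them was Alas2, whose levels overlapped between the groups and whose sign turned in some alternative fits. At an unadjusted p under 0.05, 6 of the 12 were lower (50%, against 12.6% of all genes), while none passed the adjusted threshold. Tmem14c, a mitochondrial porphyrin carrier, had -0.70 (SE 0.131, adjusted p = 0.0541) and Cpox -1.18 (SE 0.292, adjusted p = 0.0820). Of 16 genes of iron uptake and storage, 8 were lower (50%, against 12.6% of all genes) and 1 was higher (Ncoa4) at the unadjusted level, with a median of -0.25. Steap3, the ferrireductase that works beside Tfrc in the endosome, had -0.80 (SE 0.206, adjusted p = 0.0875), Slc25a38, the mitochondrial glycine carrier, had -0.76 (SE 0.155, adjusted p = 0.0646) and Pcbp1, an iron chaperone, -0.36 (SE 0.108, adjusted p = 0.111).

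The transcription factors that work beside Klf1 had values of both signs. Of 16 such genes, 4 were higher (25.0%, against 15% of all genes) and 3 lower (18.8%, against 12.6%) at an unadjusted p under 0.05, none past the adjusted threshold, and the median log2 fold change was 0.01. Nfe2 had 0.53 (SE 0.103, adjusted p = 0.0583), E2f2 0.41 (SE 0.089, adjusted p = 0.0684) and Zbtb7a -0.31 (SE 0.074, adjusted p = 0.0768). The pair Gata1 and Gata2, singled out after their values were seen, had values of opposite sign. Gata1, the master factor of erythroid cells, was at 70.6, 89.6 and 110 CPM in the Asxl2-/- replicates and 135, 113 and 166 CPM in the controls (-0.54, SE 0.213, adjusted p = 0.171), and Gata2, which precedes it in progenitors, at 258, 226 and 327 against 224, 165 and 171 CPM (0.51, SE 0.202, adjusted p = 0.172).

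Of 15 genes of erythropoietin receptor signalling, 5 were higher (33.3%, against 15% of all genes) and none lower at the unadjusted level, while the receptor itself was lower. The higher genes were Bcl2l1, Cish, Socs2, Pim1 and Fam132b. Over the whole list 10 genes had a log2 fold change above 0 and 5 below 0. Bcl2l1, which encodes the survival factor Bcl-xL, had a log2 fold change of 0.78 (SE 0.147, adjusted p = 0.0552), Cish 0.88 (SE 0.202, adjusted p = 0.0753) and Socs2 1.31 (SE 0.306, adjusted p = 0.0761). No member of this list passed the adjusted threshold, and its median was 0.08.

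The families of Car1, Car2, Aqp1 and Slc4a1 were measured as well. Of the 10 other carbonic anhydrases tested, 3 were higher and 3 lower at the unadjusted level (30.0% each, against 15% and 12.6% of all genes), all at far lower levels than Car1 and Car2. By p-value the first was Car8, at 0.0940 to 0.213 CPM in Asxl2-/- and 0.590 to 0.806 CPM in control libraries (-2.35, SE 0.532, adjusted p = 0.0740), followed by Car13 (0.43, adjusted p = 0.0911) and Car9 (0.54, adjusted p = 0.101). The Asxl2-/- levels of Car8 rest on few counts, since 3 counts stand for 0.0545 to 0.118 CPM in those libraries. Of 3 other aquaporins and 6 other bicarbonate transporters tested, none passed the adjusted threshold, and Slc4a2 (0.28, adjusted p = 0.103) and Slc4a3 (1.91, adjusted p = 0.150) were higher at the unadjusted level, 2 of the 6 against 15% of all genes. Aqp9 was the most abundant of the other aquaporins, at 46.4 to 87.1 CPM.

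**Figure D4:**
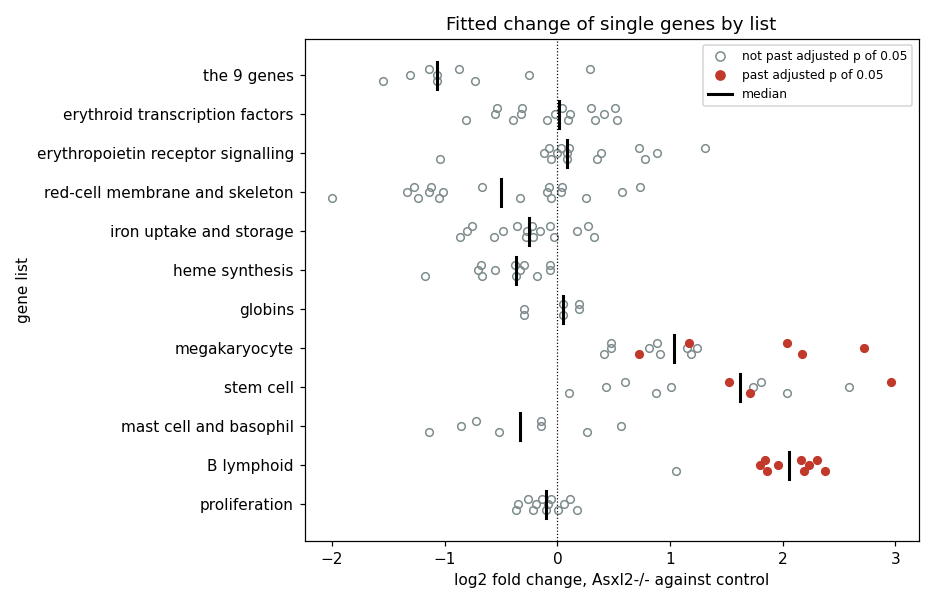
Fitted log2 fold change, Asxl2-/- against control (horizontal axis), of each tested gene in 12 lists, with filled red points past the adjusted threshold of edgeR and a bar at the median. The 9 genes and the lists of membrane, iron and heme genes lie mainly left of 0, and the filled points are confined to the megakaryocyte, stem cell and B lymphoid lists, all on the right.

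Late erythroid transcripts, of which Hbb-bs and Alas2 were singled out after their values were seen, followed another order than the 7 lower genes. Hbb-bs, an adult beta-globin gene, was at 40.3, 10.5 and 15.7 CPM in Asxl2-/- replicates 1, 2 and 3 and at 31.0, 11.4 and 16.2 CPM in control replicates 1, 2 and 3. Hba-a1 was at 19.3, 4.998 and 8.04 CPM against 19.3, 6.25 and 12.6 CPM, and Alas2, the erythroid enzyme that starts heme synthesis, at 6.56, 2.27 and 2.93 against 6.49, 2.05 and 4.51 CPM. Replicate 1 of each group was the highest, as in Slc4a1, and the groups overlapped. None of the 6 globin symbols tested had an unadjusted p under 0.05. Hbb-bs and Hbb-b1, Hbb-b2 and Hbb-bt, and Hba-a1 and Hba-a2 carried identical counts in the files, so the copies are not separate measurements.

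A list of 10 glial genes, made after the values were seen and with none of its 8 tested genes past the threshold, was also highest in replicate 1 of each group. Its summed level was 128, 14.8 and 51.7 CPM in the Asxl2-/- replicates and 102, 12.4 and 39.2 CPM in the controls. Aqp4, a water channel of glia and the sister of Aqp1, was one of them, at 5.003 CPM in Asxl2-/- replicate 1 and 0.338 CPM in replicate 2. The part of the libraries numbered 1 in the results was examined by leaving both out. The 7 lower genes then had log2 fold changes between -0.72 and -1.55, none past the adjusted threshold and 4 of the 9 genes with an unadjusted p under 0.05, and Slc4a1 had -0.44 (SE 0.349, edgeR adjusted p = 0.524).

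**Figure D5:**
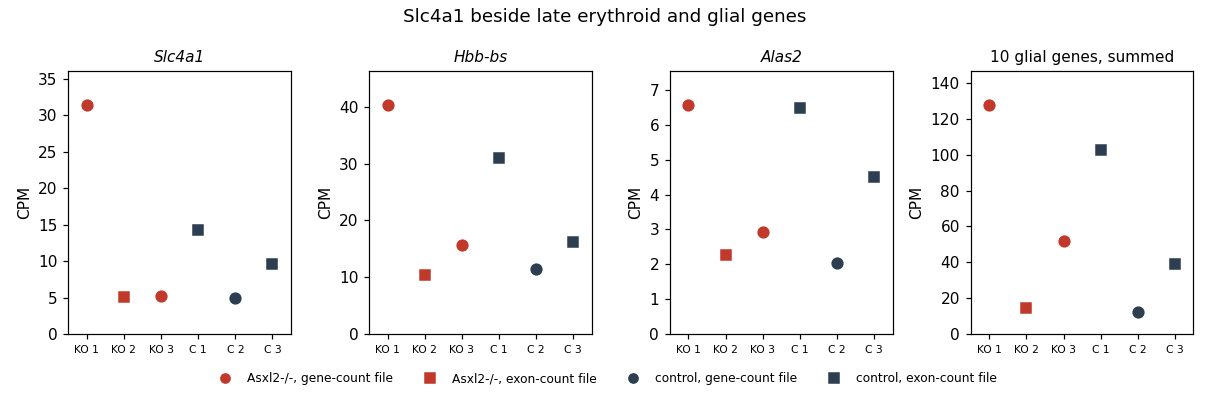
Level in CPM (vertical axes from 0) of Slc4a1, Hbb-bs, Alas2 and the sum of 10 glial genes in each library, with Asxl2-/- (KO) in red, controls (C) in dark, circles for gene-count files and squares for exon-count files. Replicate 1 of each group is the highest of its group in all 4 panels.

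Markers of other cells were measured beside the erythroid genes, and their part in the lower levels was not tested. Of 14 megakaryocyte genes, 5 were past the adjusted threshold, all higher (Vwf, Ppbp and Gp5 among them), and of 12 stem cell genes 3 were (Slamf1, Ctnnal1 and Cdkn1c), against 2.04% of all genes. Megakaryocyte genes summed to 529 to 1057 CPM in the Asxl2-/- libraries and 316 to 514 CPM in the controls, and stem cell genes to 219 to 257 against 105 to 161 CPM. Of 10 B lymphoid genes, 9 were higher past the threshold (Cd79a, 1.84, adjusted p = 0.0178), with sums of 210.3 to 249 CPM against 47.5 to 71.5 CPM. Slamf1, the receptor CD150 of stem cells, was at 32.2, 35.7 and 34.5 CPM against 16.0, 10.4 and 11.5 CPM (1.52, SE 0.170, edgeR adjusted p = 0.0196). Without Asxl2-/- replicate 1 or without control replicate 3, none of the 87 genes in the lists of other cells and proliferation passed the edgeR threshold, with 38 and 41 of them at an unadjusted p under 0.05.

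The remaining lists held no gene past the adjusted threshold. Mast cell and basophil genes, markers of cells that share early progenitors with the erythroid line, had 1 of 8 lower at the unadjusted level (Gzmb, -0.85, adjusted p = 0.0800; 12.5%, against 12.6% of all genes) and a median of -0.33. Myeloid genes summed to 2782 to 7151 CPM in Asxl2-/- and 2786 to 8343 CPM in control libraries, with 3 of 12 higher at the unadjusted level (25.0%, against 15% of all genes). Of 11 endothelial genes 6 were higher at that level (54.5%, against 15% of all genes), and of 7 T and NK genes 1 was lower (14.3%, against 12.6%). Among 13 proliferation genes, 3 were lower at that level (23.1%, against 12.6% of all genes) with a median of -0.10, and their sums overlapped, from 4733 to 5247 CPM in Asxl2-/- and from 4917 to 5572 CPM in control cells.

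Finally, the genes whose level across the 6 libraries was most like the mean of the 9 were sought. The measure was Pearson's r with the mean of the standardised log2 CPM of the 9 genes, file kind removed, among 2798 other genes that varied by an SD of at least 0.5. Slc4a1 itself had a negative r with every other gene of the 9 (-0.44 to -0.07). A high r with the mean is therefore not likeness to each of the 9. The 6 highest genes were Ell2 (0.999), Klf3 (0.998), Gm15816 (0.998), Slc40a1 (0.998), Add2 (0.997) and Sphk1 (0.995). Klf3 is a Krüppel-like factor that Klf1 is known to activate, Slc40a1 is the iron exporter ferroportin, and Sphk1 makes sphingosine 1-phosphate. Their log2 fold changes ran from -0.77 for Ell2 to -1.77 for Sphk1, none past the adjusted threshold. With 6 libraries in 2 groups, a gene that separates the groups tends to score high on this measure, and the values are a description only.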

How the data were processed

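RNA sequencing libraries of LSK cells from 3 Asxl2-/- and 3 control mice, poly(A)-selected and unstranded according to the methods of the study, were grouped by their labels. The deposited values were raw counts, which the authors gave per transcript for 3 libraries and per exon for the other 3, on mm10 with RefSeq transcripts. The submitters' processing notes name STAR, featureCounts and DESeq2 with no role or version. The study tested expression with Cuffdiff, which needs aligned reads and was not used here.

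For each symbol the transcript with the longest summed exon length was kept, and exon counts were summed over it. Counts were tested with edgeR 4.0.16 (glmQLFit and glmQLFTest, TMM scaling, filterByExpr) in R 4.3.3, with the kind of file and the group as terms, with 3 residual degrees of freedom. Two-sided p-values were adjusted by Benjamini-Hochberg over all 14145 genes tested (threshold 0.05). The F statistic and the fold change gave each SE, and the intervals use that SE with its moderated degrees of freedom. Mean log2 CPM values (prior count 2) had the fitted effect of the file kind removed, so their SDs are somewhat too small. Differences given for 1 kind of file are differences of mean log2 CPM over its 3 libraries, with no test. Intervals of shares cover counting error only. The labels and methods call the samples biological replicates, and p-values measure the spread between these 6 libraries.

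The genes and lists were chosen with earlier results of these data known. The genes named were the 9, up to 3 genes with the smallest p-values from each list, Asxl2, Xist and Ddx3y, and the 6 genes most like the 9 in level; others are said to be chosen after their values were seen or fill counts of 5 or fewer. Genes of other cells are named only in part, and a few genes that the rule would name are not reported here. Beyond limma-voom (limma 3.58.1) and DESeq2 1.42.0, the alternatives were a filter of at least 10 counts in every library or none, scaling by median ratios or by library size, no file-kind term, the replicate number as a block, either kind of file alone, the longest exon, the transcript of lowest accession, no X or Y genes, and leaving out each library. Leaving out both libraries numbered 1 was added after seeing the data. The edgeR script was tested on simulated data.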

Additional observations from a re-analysis of the deposited data

How the results depend on the processing

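The 7 genes that were lower kept their sign in all 21 alternatives. Of the 9 genes, 4 passed the adjusted threshold with DESeq2 (against 16.6% of all genes) and 1 with limma-voom (against 3.04%). Without the file-kind term 1 passed, against 380 of all 14145 genes. When 1 library was left out 0 to 2 passed, against 9 to 1312 of all genes. Without any single library the log2 fold changes ran from -1.40 to -0.81 (Klf1), -1.16 to -0.58 (Epor), -1.29 to -0.97 (Tfrc), -1.89 to -1.23 (Rhag), -1.60 to -0.53 (Ermap), -0.76 to 0.26 (Aqp1), -1.80 to -1.08 (Car1), -1.17 to -0.29 (Car2) and -1.25 to 1.88 (Slc4a1). The values past the threshold were -1.12, -0.92, -1.18 and -1.59 with DESeq2 for Klf1, Epor, Tfrc and Rhag, and for Tfrc -1.13 with limma-voom and -1.08 without the file-kind term. The exon-count files refitted alone hold 1 Asxl2-/- library. Their log2 fold changes were -1.33, -1.16, -1.23, -1.86, -1.60, -0.76, -1.51 and -1.17 for Klf1, Epor, Tfrc, Rhag, Ermap, Aqp1, Car1 and Car2.

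Signs turned for Aqp1 in the gene-count files alone (0.25). For Slc4a1 the sign turned with limma-voom (-0.21), from exon-count files alone (-1.25) and without both libraries numbered 1 (-0.44). Hbb-b2 and Hbb-bt turned with limma-voom (-0.012) and from exon-count files alone (-0.70), and ran from -0.70 to 1.12 without 1 library (-0.11 among them). Hba-a1 turned in the gene-count files alone (1.10) and ran from -1.68 to 1.13 without 1 library. Alas2 turned with library size only (0.028), in the gene-count files alone (1.19), with the longest exon (0.095) and ran from -1.27 to 1.21 without 1 library. The cause was not tested.

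Whether the replicate numbers pair the samples could not be decided. The correlation of deviations between same-numbered libraries was over 0.1 in 1 of 3 pairs (-0.0077 to 0.294). The file kind was not removed from these deviations, and the libraries of each pair were of different kinds of file. With the number as a replicate block beside the file kind, which leaves 1 residual degree of freedom, 8 of the 9 genes were called. The same fit called 5179 of all 14145 genes tested. The 8 genes had -1.11, -0.89, -1.13, -1.55, -1.13, -0.30, -1.41 and -0.74 for Klf1, Epor, Tfrc, Rhag, Ermap, Aqp1, Car1 and Car2. With the block and no file-kind term 2 of the 9 were called, Klf1 (-1.09) and Rhag (-1.56), against 380 of all 14145 genes.

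Over the 6 erythroid lists, 0 of 83 genes were called, and 25 with DESeq2, 2 with limma-voom, 4 without the file-kind term, 47 with both block and file kind, 7 with only the block, 4 from gene-count files, 21 from exon-count files, and 0 to 6 without 1 library. In the 8 lists of other cells and proliferation 17 of 87 were called, against 39 with DESeq2, 9 with library size only, 57 with the block and file kind, 0 without both libraries numbered 1 and 0 to 26 without 1 library. Over all genes 331 were called, against 2302 with DESeq2, 161 with library size only, 5179 with the block and file kind, 1021 from gene-count files, 662 from exon-count files, 0 without both libraries numbered 1 and 9 to 1312 without 1 library.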
